A study of Mus musculus with 9 samples.

Results

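Nrm, Stmn1, Zfp367, Igfbp4, Crip1 and Depdc1b are 6 genes chosen by their array signal against vehicle, which was higher in mouse cytotoxic T lymphocytes treated with either of 2 inhibitors of the mTOR kinase. They are 6 of the 18193 genes that the array annotation names by at least 1 probe set of its own. The annotation gives them 14 probe sets, all of which are described here on all 9 arrays. Because the signals against vehicle chose these genes, those differences are given as a description without a test, and the difference between the inhibitors is the one that was tested.

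The cells came from spleens of P14-TCR mice, which carry a transgenic T cell receptor and are labelled wild type in genotype, so every group shares the transgene. The antigenic peptide of that receptor and the interleukins IL-2 and IL-12 activated the CD8 T cells for 48 h, and culture went on for another 96 h, giving effector cells of day 6. The groups differ in the last 48 h, when cells received 1 uM KU-0063794 (3 arrays), 20 nM rapamycin (3 arrays) or DMSO as vehicle (3 arrays). By the labels' protocols each biological replicate is 1 spleen. That equal replicate numbers in the 3 groups share a spleen is an inference. The cells were grown outside the animal, a cell sort is not described in the sources used here, and age is not given in the labels.

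The mTOR kinase works in a pair of protein complexes that couple nutrients and growth signals to protein synthesis, cell growth and metabolism. Rapamycin binds the protein FKBP12 and, with it, inhibits mainly the first complex, whereas KU-0063794 blocks the catalytic site of the kinase and so acts on both complexes. In cytotoxic T lymphocytes, mTOR activity is known for sustaining glycolysis, effector molecules and the trafficking programme of effector cells. The 6 genes belong to no single pathway: nurim sits in the inner nuclear membrane, stathmin binds tubulin, ZFP367 is a zinc finger protein, IGFBP4 binds insulin-like growth factors, CRIP1 is a small LIM domain protein and DEPDC1B carries a DEP domain and a RhoGAP-like domain.

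Signals are the authors' log2 values of an Affymetrix mouse genome array, on which a difference of 1 is a doubling. All 13 CD8 T cell identity genes in the table were above the background level, set at 1.43 log2 by 33 tissue-restricted genes, and their mean log2 signal ranged from 7.004 to 7.045 with KU-0063794, from 7.06 to 7.12 with rapamycin and from 6.98 to 7.08 with DMSO. Of these 13, limma called Lat, an adaptor of T cell receptor signalling, which fell by 0.39 with KU-0063794 (adjusted p = 0.0229; not called without DMSO replicate 1 or 3 or any KU-0063794 array), and none with rapamycin, where 1 was higher and 1 lower at an unadjusted p under 0.05. With the spleen as a block, Cd247, Lat and Ptprc fell and Cd2 rose with KU-0063794, and Lat fell and Cd8b1, Cd2 and Cd5 rose with rapamycin. Markers of other cells were mostly below that level: in DMSO, 1 of 8 B cell genes (Cd79b), 1 of 4 CD4 T cell genes (Zbtb7b), 1 of 15 myeloid genes (Csf1r), 1 of 11 stromal and endothelial genes (Pecam1) and neither the 2 NK cell nor the 5 erythroid genes exceeded it. Among these markers limma called only the myeloid gene Cd68, below background, which fell by 0.50 with rapamycin (limma adjusted p = 0.0208). It was not called without DMSO replicate 3 or rapamycin replicate 2 or 3. Genes of the naive T cell list had a mean log2 signal of 3.99 to 4.13 with KU-0063794 and 4.05 to 4.25 with rapamycin, against 3.83 to 3.92 with DMSO. None of the 8 naive genes tested passed limma in either comparison with DMSO, although 2 with KU-0063794 and 3 with rapamycin were higher at an unadjusted p under 0.05, and Ccr7 and Lef1 passed with rapamycin when the spleen was a block. The part of such genes in the results below was not tested. The 3' minus 5' log2 signal of control probe sets is a sign of RNA quality. For actin it was 0.65 to 0.70 with KU-0063794, 0.62 to 0.72 with rapamycin and 0.49 to 0.65 with DMSO. For Gapdh it was -0.22 to -0.03 with KU-0063794, -0.25 to -0.03 with rapamycin and -0.21 to 0.04 with DMSO. The part of RNA quality in the results was not tested either. In RNA from a whole culture, fewer cells of a type and less RNA per cell cannot be told apart.

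Of the 14 probe sets, 11 had a mean above the background level, and on each of these 11 the lowest array of either inhibitor lay above the highest DMSO array. The remaining 3 were a second probe set of Nrm and of Zfp367, below background on all 9 arrays, and 1 of the 6 probe sets of Igfbp4. Among the 13278 genes tested, all 3 arrays lay above all 3 DMSO arrays for 11% with KU-0063794, for 9.38% with rapamycin and for 6.77% with both. The members were chosen for this pattern, so their count of 6 of 6 genes says nothing beyond the choice.

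**Figure D1:**
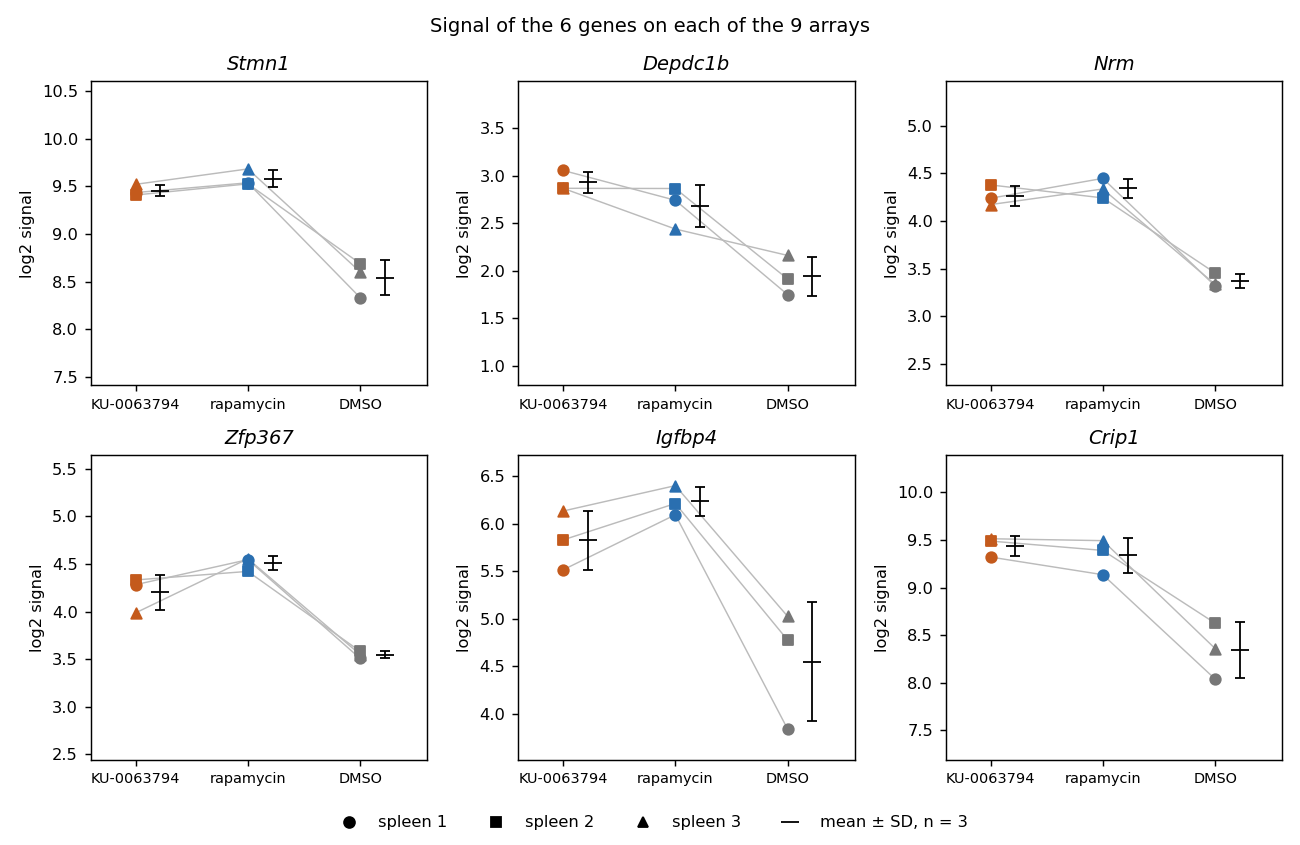
Log2 signal of each of the 6 genes on the 9 arrays (vertical axis, log2), by the probe set with the highest mean, with KU-0063794 left, rapamycin in the middle and DMSO right. Points are arrays, with a shape for each spleen and lines joining arrays of 1 spleen, and bars are mean ± SD (n = 3); no array of either inhibitor falls within the DMSO range of its gene.

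Nurim, the product of Nrm, is a multipass protein of the inner nuclear membrane. On its probe set 1417971_at the log2 signal was 4.24, 4.38 and 4.17 in spleens 1, 2 and 3 with KU-0063794, 4.45, 4.24 and 4.34 with rapamycin and 3.32, 3.45 and 3.33 with DMSO. The 6 inhibitor arrays shared 1 narrow range, and the DMSO arrays lay below it without overlap. The mean difference from DMSO was 0.90 ± 0.05 with KU-0063794 (SD over 3 spleens, 1.86-fold) and 0.97 ± 0.17 with rapamycin (1.96-fold). The other probe set, 1443761_at, had log2 signals of -0.27 to 0.50 over all arrays, below the background level, and gives no value for the gene.

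Around nurim, 22 nuclear envelope genes were tested with limma. With KU-0063794, 3 rose and none fell (Sun2, Nemp1 and Ndc1), and with rapamycin, 4 rose and none fell (the same 3 and Tmpo). The share of all genes that rose was 2.28% with KU-0063794 and 2.65% with rapamycin, and the shares that fell were 1.78% and 1.79% (4.07% and 4.44% in either direction). Nemp1, another inner nuclear membrane protein, averaged 3.19 ± 0.23 log2 with KU-0063794 and 3.31 ± 0.14 with rapamycin, against 2.35 ± 0.20 with DMSO (SD, n = 3 each), a rise of 0.84 (limma adjusted p = 0.0171) and 0.95 (limma adjusted p = 0.0108). Sun2, which links the nuclear lamina to the cytoskeleton, rose by 0.61 and 0.70. The median difference of the list was 0.27 with KU-0063794 and 0.17 with rapamycin, beside 0.01 and -0.004 over all genes tested.

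With the spleen as a block, which brings the share of all genes that passed to 12.4% with KU-0063794 (6.52% rose, 5.86% fell) and 11.8% with rapamycin (6.24% rose, 5.52% fell), 9 and 8 of the nuclear envelope genes rose and 1 fell in each comparison, Lmna. Lmna encodes the A-type lamins and averaged 1.87 log2 with KU-0063794 and 2.14 with rapamycin, against 3.44 with DMSO. Its differences of -1.57 and -1.29 missed the threshold without the block (limma adjusted p = 0.0762 and 0.131). Leaving out any KU-0063794 array brought the count that rose with KU-0063794 to 1, leaving out DMSO replicate 2 brought it to 5, and leaving out DMSO replicate 1 or 3 or rapamycin replicate 1 brought the count with rapamycin to 2.

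Stathmin, the product of Stmn1, binds tubulin dimers and promotes the shrinking of microtubules, and it is phosphorylated as cells enter mitosis. Probe set 1415849_s_at gave log2 signals of 9.44, 9.41 and 9.52 with KU-0063794, 9.54, 9.53 and 9.68 with rapamycin and 8.33, 8.69 and 8.60 with DMSO. All inhibitor arrays lay above all DMSO arrays, and the rapamycin arrays lay above the KU-0063794 arrays by a small margin. The mean difference from DMSO was 0.91 ± 0.19 with KU-0063794 (1.88-fold) and 1.04 ± 0.19 with rapamycin (2.06-fold).

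A dimmer second probe set of Stmn1, 1448113_at, kept the same order of groups. Its log2 signals were 5.17, 5.17 and 4.90 with KU-0063794, 5.32, 5.36 and 5.83 with rapamycin and 4.05, 4.26 and 4.28 with DMSO. No 2 of the 3 groups overlapped, and spleen 3 held both the lowest KU-0063794 and the highest rapamycin array. The differences from DMSO were 0.88 with KU-0063794 and 1.31 with rapamycin.

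Of 22 tubulin and microtubule genes tested with limma, 3 rose and 1 fell with KU-0063794, and 5 rose and 2 fell with rapamycin. Over all genes tested, 2.28% rose and 1.78% fell with KU-0063794, and 2.65% rose and 1.79% fell with rapamycin. The list had a median difference of 0.08 with KU-0063794 and 0.02 with rapamycin. Tubb5, Kif2c and Kif18a rose with both inhibitors, and Ckap5 and Tacc3 rose with rapamycin, by 0.52 and 0.55. Their differences with KU-0063794, 0.44 for each, missed the threshold (limma adjusted p = 0.0532 and 0.0740). Kif2c, a kinesin that takes microtubules apart, averaged 5.20 ± 0.01 log2 with KU-0063794 and 5.32 ± 0.12 with rapamycin, against 4.55 ± 0.11 with DMSO, so that it was 0.65 and 0.77 higher. Among its 4 probe sets, 1 below background moved the opposite way with rapamycin. Tubb2a, a beta tubulin, averaged 2.26 ± 0.29 and 2.34 ± 0.34 log2, against 4.15 ± 0.61 with DMSO, and fell by 1.88 with KU-0063794 and by 1.81 with rapamycin on 1 of its 2 probe sets; the other, below background, moved the opposite way. Tubb6 fell by 1.14 with rapamycin, and its difference of -0.89 with KU-0063794 missed the threshold (limma adjusted p = 0.102). Without DMSO replicate 1, 1 gene rose and none fell with either inhibitor, and the counts that rose spanned 1 to 3, and those that fell 0 to 2, with each inhibitor over all 9 arrays left out in turn. With the spleen as a block, 5 rose and 3 fell with each inhibitor. In that fit 6.52% of all genes rose and 5.86% fell with KU-0063794, and 6.24% rose and 5.52% fell with rapamycin. Stmn2, Stmn3 and Stmn4, the other stathmin genes, were below the background level.

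Zfp367 encodes a C2H2 zinc finger protein thought to bind DNA. Its promoter window, 250 bases before to 50 after the annotated start at chr13:64153150-64153449 on the minus strand (RefSeq, GRCm38.p6), is shown because it held several of the 7 motifs searched. Capitals mark every motif found, printed 5′ to 3′ along the gene, and a motif on the opposite strand therefore appears as its reverse complement.
Zfp367: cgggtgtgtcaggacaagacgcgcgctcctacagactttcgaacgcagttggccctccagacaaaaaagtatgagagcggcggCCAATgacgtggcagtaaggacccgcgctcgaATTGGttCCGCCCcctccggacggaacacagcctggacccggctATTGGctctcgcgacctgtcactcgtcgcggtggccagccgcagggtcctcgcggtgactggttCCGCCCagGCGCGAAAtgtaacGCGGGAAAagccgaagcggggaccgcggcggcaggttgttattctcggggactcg

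The search on both strands found the E2F motif as TTTCGCGC 19 bases and as TTTCCCGC 5 bases before the start (first base of each match, position -19 and -5), both on the opposite strand. Of the 32851 promoters of the same length in the RefSeq table, 2.26% held at least 1 of the 4 E2F spellings (TTTCGCGC, TTTGGCGC, TTTCCCGC, TTTGCCGC). The window also held CCAAT at positions -167, -135 and -91 (in 37.4% of promoters) and GGGCGG, the GC box, at -128 and -27 (in 35.7%). The motifs did not overlap each other. A second annotated start of Zfp367, at chr13:64152324-64152623, had a TTTGGCGC match at -90 and 4 GC boxes. A match describes letters in this window and says nothing of binding in these cells.

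On probe set 1433623_at of Zfp367 the log2 signals were 4.28, 4.33 and 3.99 with KU-0063794, 4.54, 4.42 and 4.55 with rapamycin and 3.51, 3.58 and 3.55 with DMSO. The DMSO arrays were close together, all KU-0063794 arrays lay above them, and all rapamycin arrays lay above those. The mean difference from DMSO was 0.65 ± 0.19 with KU-0063794 (1.57-fold) and 0.96 ± 0.11 with rapamycin (1.95-fold). Probe set 1438772_at read 0.06 to 0.35 log2 over the 9 arrays and gives no value for the gene.

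IGFBP4 is a secreted protein that binds insulin-like growth factors and holds them from their receptor until it is cut by the protease PAPP-A. Its signal lay further above DMSO than that of any other of the 13278 genes with rapamycin, and with KU-0063794 it was the fifth in that order. Its promoter window, chr11:99040994-99041293 on the plus strand (RefSeq, GRCm38.p6), is shown because 1 of the 7 motifs was found in it, TATAAA at position -28, marked in capitals.
Igfbp4: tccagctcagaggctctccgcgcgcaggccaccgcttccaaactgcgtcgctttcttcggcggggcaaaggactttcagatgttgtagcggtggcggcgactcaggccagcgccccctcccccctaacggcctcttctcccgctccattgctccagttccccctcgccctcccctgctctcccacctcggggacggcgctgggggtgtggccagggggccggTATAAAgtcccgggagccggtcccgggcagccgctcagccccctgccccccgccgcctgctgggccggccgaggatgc
TATAAA was present in 13.6% of the promoters in the table, and 71.3% of the bases of the Igfbp4 window are G or C.

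Probe set 1437405_a_at of Igfbp4 gave log2 signals of 5.52, 5.83 and 6.13 with KU-0063794, 6.09, 6.21 and 6.40 with rapamycin and 3.84, 4.78 and 5.03 with DMSO. The groups did not overlap with DMSO, but the spread within DMSO was the widest of any member, and spleen 1 was lowest and spleen 3 highest in every group. The mean difference from DMSO was 1.28 ± 0.34 with KU-0063794 (2.42-fold) and 1.69 ± 0.49 with rapamycin (3.22-fold). Without DMSO replicate 1 the differences were 0.92 and 1.33.

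The other Igfbp4 probe sets gave the same order of group means, DMSO lowest and rapamycin highest. Over the 5 probe sets above background, the difference from DMSO ranged from 0.83 to 1.33 with KU-0063794 and from 1.06 to 1.81 with rapamycin. On each of the 5, DMSO spleen 1 read lowest and DMSO spleen 3 highest. The dimmest probe set, 1421991_a_at, exceeded the background level on 5 of 9 arrays, read 0.48 higher with KU-0063794 and 0.54 higher with rapamycin, and overlapped between KU-0063794 and DMSO. Probe sets of 1 gene share its RNA and some share probes, so they are not replicates of the treatment.

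**Figure D2:**
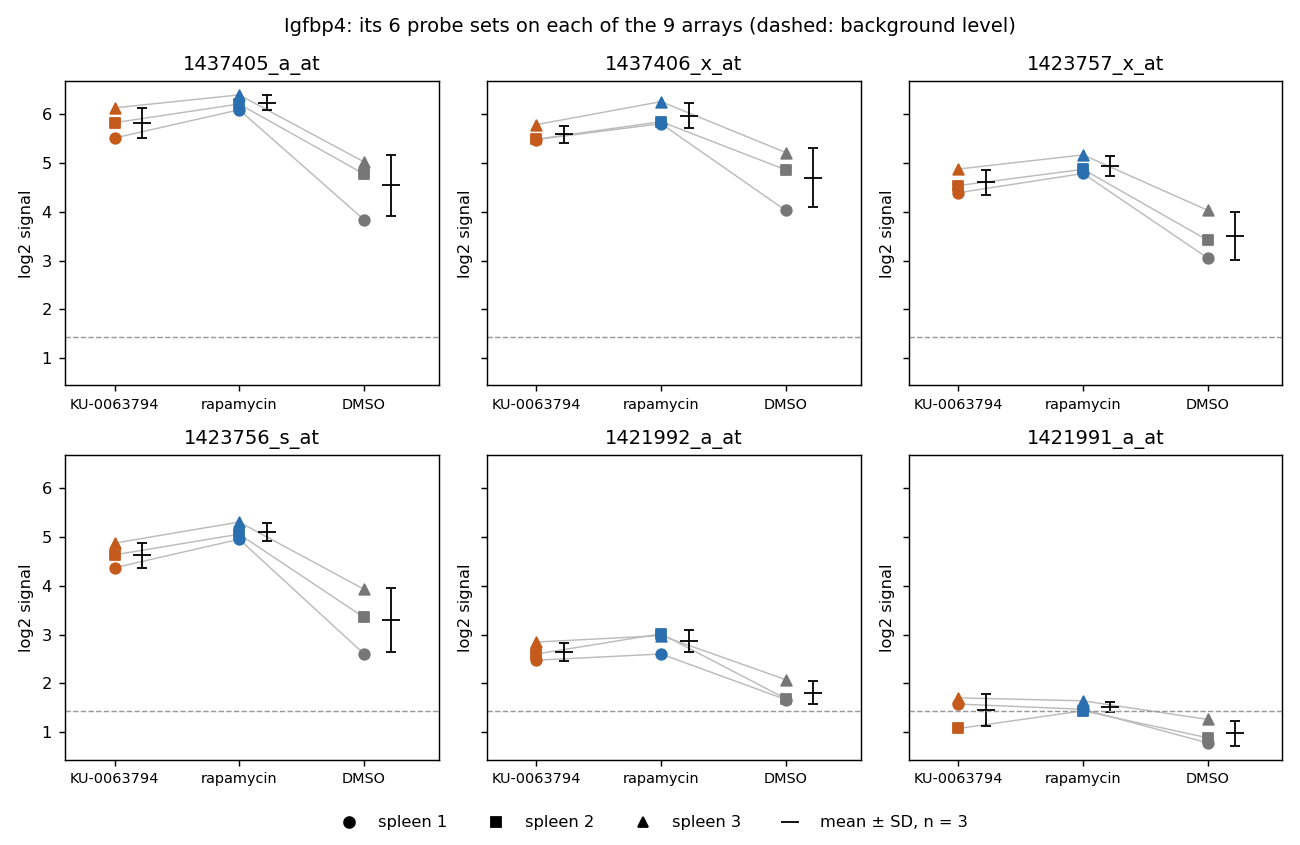
Log2 signal of the 6 Igfbp4 probe sets on the 9 arrays (vertical axis, log2), with KU-0063794 left, rapamycin in the middle and DMSO right for each probe set, a shape for each spleen, bars for mean ± SD (n = 3) and a dashed line at the background level. The 5 probe sets above the 1.43 log2 background level separate both inhibitors from DMSO, and the dimmest does not separate KU-0063794 from DMSO.

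None of the other genes of the insulin-like growth factor system, Igfbp4 left out, rose with either inhibitor by limma, where 1 was higher at an unadjusted p under 0.05 with each. Of 14 tested of 19 in the table, 2 fell with KU-0063794 (Igf2r and Stc2) and 1 fell with rapamycin (Stc2) by limma. The shares of all genes tested that fell were 1.78% with KU-0063794 and 1.79% with rapamycin. Stc2, stanniocalcin-2, an inhibitor of PAPP-A, averaged 2.44 ± 0.06 log2 with KU-0063794 and 2.64 ± 0.02 with rapamycin, against 3.20 ± 0.04 with DMSO. It fell by 0.76 with KU-0063794 (limma adjusted p = 0.00304) and by 0.55 with rapamycin (limma adjusted p = 0.00695), and rapamycin's count was 1 without each of the 9 arrays in turn. Only 1 of the 3 Stc2 probe sets was above background, and 1 of the others moved the opposite way with KU-0063794. Igf2r, the receptor that carries insulin-like growth factor 2 to lysosomes, averaged 4.43 ± 0.31 log2 with KU-0063794 and 5.002 ± 0.40 with rapamycin, against 5.51 ± 0.19 with DMSO. Its fall with KU-0063794 was 1.08 (limma adjusted p = 0.0267), and the difference of -0.51 with rapamycin missed the threshold (limma adjusted p = 0.252) unless spleen was a block (limma adjusted p = 0.0128). Leaving out DMSO replicate 1 or 3 or any KU-0063794 array brought the count that fell with KU-0063794 to 1. Igf1, Igf2, Igf1r and Insr, the growth factors and their main receptors, were below the background level, as were Igfbp3, Igfbp5 and Igfbp6.

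CRIP1 is a small cysteine-rich protein made mainly of 1 LIM domain, a zinc-binding fold for contacts between proteins. Its promoter window, chr12:113151762-113152061 on the plus strand (RefSeq, GRCm38.p6), is shown because GGGCGG occurred 3 times in it, at positions -211, -32 and -26, the last 2 adjoining each other; capitals mark these matches.
Crip1: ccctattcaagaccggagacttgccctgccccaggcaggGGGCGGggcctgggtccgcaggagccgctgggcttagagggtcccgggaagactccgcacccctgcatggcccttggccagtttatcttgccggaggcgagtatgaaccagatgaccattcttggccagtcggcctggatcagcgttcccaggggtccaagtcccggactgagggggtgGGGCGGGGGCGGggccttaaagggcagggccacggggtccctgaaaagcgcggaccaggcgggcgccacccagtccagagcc
None of the other 6 motifs was found in the Crip1 window, and the Nrm window, chr17:35861068-35861367, held none of the 7. Among these 6, the cell cycle element TTTGAA was present in 17.9% of promoters, the FOXO motif GTAAACA in 3.65% and the E box CACGTG in 7.15%, beside the E2F, CCAAT and TATA motifs given for the other genes. The RefSeq table matched 4 of the 6 genes, with 5 windows; Stmn1 and Depdc1b are named only.

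On the only Crip1 probe set, 1416326_at, log2 signals were 9.32, 9.49 and 9.51 with KU-0063794, 9.14, 9.39 and 9.49 with rapamycin and 8.04, 8.63 and 8.36 with DMSO. The inhibitor groups overlapped, though the lowest rapamycin array lay below all KU-0063794 arrays. DMSO lay below both, and spleen 1 was lowest in every group. The mean difference from DMSO was 1.10 ± 0.21 with KU-0063794 (2.14-fold) and 1.00 ± 0.20 with rapamycin (2.00-fold).

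Of 26 other LIM domain genes in the table, 22 were tested with limma, and 1 rose and 1 fell with KU-0063794 while 2 rose and none fell with rapamycin. Beside these, 2.28% of all genes tested rose and 1.78% fell with KU-0063794, and 2.65% rose and 1.79% fell with rapamycin. Limd2 rose with both inhibitors, by 0.56 with KU-0063794 and 0.53 with rapamycin. Csrp1, a relative of CRIP1 that associates with the actin cytoskeleton, rose by 0.64 with rapamycin, and Pxn, the focal adhesion protein paxillin, fell by 0.46 with KU-0063794. The difference of 0.44 for Csrp1 with KU-0063794 missed the threshold (limma adjusted p = 0.0684). So did that of -0.34 for Pxn with rapamycin (limma adjusted p = 0.106). Among the 3 Pxn probe sets, 1 below background moved the opposite way with KU-0063794. The medians of the list were -0.08 with KU-0063794 and -0.06 with rapamycin. These calls varied with the arrays used. No LIM domain gene passed without DMSO replicate 1. In that fit the calls over all genes also fell, from 540 to 138 with KU-0063794 and from 590 to 193 with rapamycin. None of the LIM domain genes fell with KU-0063794 in 8 of the 9 fits that left out 1 array, all but that without DMSO replicate 2. None rose with KU-0063794 without KU-0063794 replicate 1 or 2, and none with rapamycin without rapamycin replicate 1 or 2. Without rapamycin replicate 3, 1 rose with rapamycin, and without DMSO replicate 2, 2 rose and 2 fell with KU-0063794. With the spleen as a block, 2 rose and 2 fell with KU-0063794 and 3 rose and 1 fell with rapamycin. That fit called 12.4% of all genes with KU-0063794 and 11.8% with rapamycin, in either direction. Crip2 and Crip3 were below the background level.

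DEPDC1B is a signalling adaptor whose known roles include the detachment of cells before mitosis, and in cycling human cells its level peaks in that part of the cycle. Its only probe set, 1434789_at, gave log2 signals of 3.05, 2.87 and 2.87 with KU-0063794, 2.74, 2.86 and 2.44 with rapamycin and 1.75, 1.91 and 2.16 with DMSO. It was the dimmest member, and the gap of 0.28 between its lowest rapamycin and highest DMSO array, both from spleen 3, was the smallest of any member. The difference from DMSO by spleen was 1.31, 0.95 and 0.71 with KU-0063794 and 0.99, 0.95 and 0.28 with rapamycin. Averaged, it was 0.99 ± 0.30 (1.98-fold) with KU-0063794 and 0.74 ± 0.40 (1.67-fold) with rapamycin.

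Of 12 other DEP domain genes tested, none passed limma's threshold with either inhibitor, and 3 had an unadjusted p under 0.05 with each (1 higher and 2 lower with KU-0063794, 2 higher and 1 lower with rapamycin). With the spleen as a block, Dvl1 rose and Plek fell with both and Prex1 fell with KU-0063794. The closest relative, Depdc1a, averaged 2.78 log2 with KU-0063794 and 3.25 with rapamycin, against 2.53 with DMSO, differences of 0.25 and 0.72 that did not pass (limma adjusted p = 0.614 and 0.0995). Deptor, an inhibitor of mTOR itself, and Depdc5, a part of the nutrient-sensing complex that restrains mTOR, were below the background level.

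Several members are known from dividing cells, and genes of the cell cycle were set beside them, with earlier results of these data known. The comparisons with DMSO use the same arrays that chose the members. Of 32 genes of G2, mitosis and cell division, 25 rose and none fell with KU-0063794, and 27 rose and none fell with rapamycin (limma). The shares of all genes tested that rose were 2.28% and 2.65%. Cenpf, a kinetochore protein, averaged 5.25 ± 0.15 log2 with KU-0063794 and 5.41 ± 0.20 with rapamycin, against 4.30 ± 0.41 with DMSO, and rose by 0.95 and 1.11. Kif20a, a kinesin of cytokinesis, rose by 0.81 and 0.96. The median difference over the list was 0.57 with KU-0063794 and 0.58 with rapamycin, beside medians of 0.01 and -0.004 over all genes tested.

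In the fit with spleen as a block, 31 of the 32 genes of G2 and mitosis rose with KU-0063794 and 30 with rapamycin. Of all genes tested, 6.52% and 6.24% rose in that fit. Without the block the count for KU-0063794 varied with the arrays used. It was 0 without KU-0063794 replicate 1, 6 without replicate 2, 3 without replicate 3 and 5 without DMSO replicate 1. Over all genes tested, calls with KU-0063794 fell from 540 to between 123 and 138 in those fits. For rapamycin, leaving out DMSO replicate 1, or rapamycin replicate 1, gave 14, and leaving out rapamycin replicate 3 gave 13. Of 35 genes of G1/S and DNA replication, 9 rose and none fell with each inhibitor, beside 2.28% (KU-0063794) and 2.65% (rapamycin) of all genes that rose. With the spleen as a block 20 rose with KU-0063794 and 14 with rapamycin, and the shares of all genes were 6.52% and 6.24%. The median difference of this list was 0.36 with KU-0063794 and 0.33 with rapamycin. E2f7, a repressor of E2F target genes, averaged 3.76 ± 0.07 log2 with KU-0063794 and 3.96 ± 0.05 with rapamycin, against 2.85 ± 0.30 with DMSO, and rose by 0.91 and 1.11. Pold1, the catalytic subunit of a replicative DNA polymerase, rose by 0.80 with KU-0063794 and 0.82 with rapamycin. Without KU-0063794 replicates 1, 2 or 3 or DMSO replicate 1 the G1/S count with KU-0063794 was 4, 3, 4 and 5, and without rapamycin replicates 1, 2 or 3 the count with rapamycin was 4, 5 and 4. These comparisons share the 3 DMSO arrays and are not independent of each other.

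**Figure D3:**
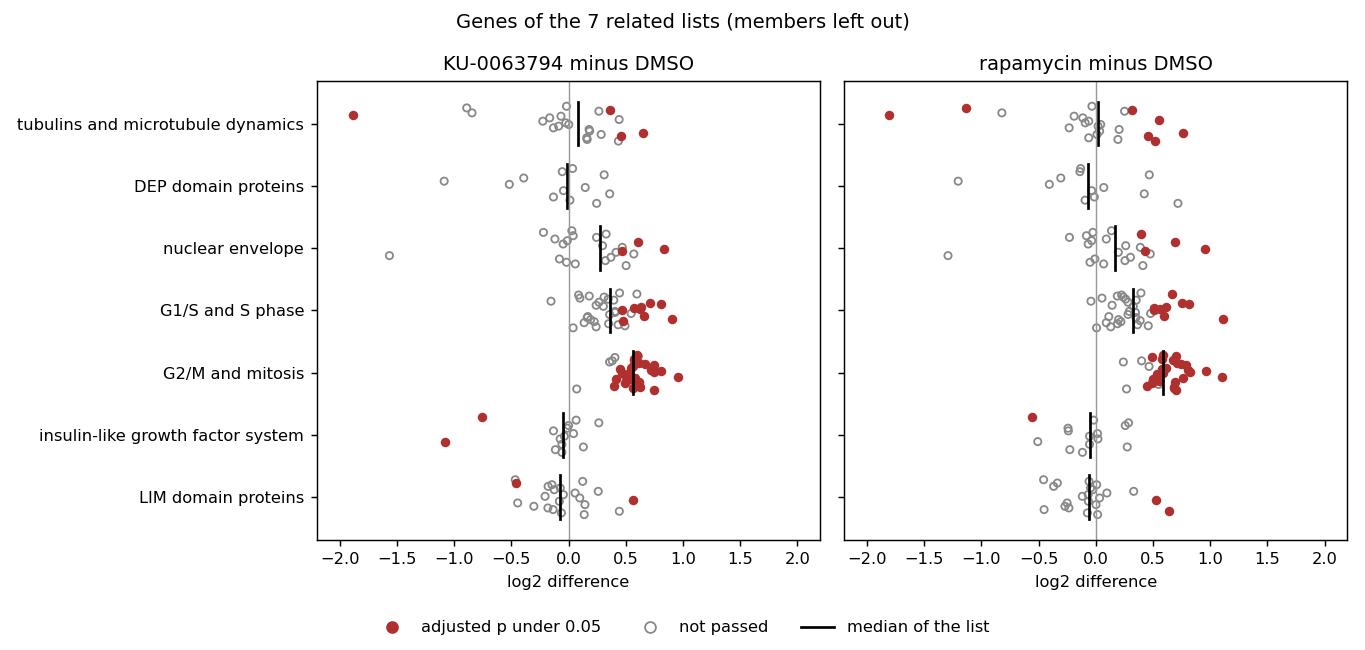
Log2 difference from DMSO (log2 scale) for each tested gene of the 7 related lists, with KU-0063794 left of rapamycin; filled points passed the test at an adjusted p of 0.05, open points did not, and black bars are medians. All 32 genes of G2 and mitosis lie above 0 with both inhibitors, with medians of 0.57 and 0.58, and the medians of the insulin-like growth factor, LIM and DEP domain lists lie between -0.08 and -0.02.

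The inhibitors were then compared with each other, KU-0063794 minus rapamycin. Members were not picked for this difference. Their choice did use the same inhibitor arrays and asked for a rise with both, so the comparison is not free of it. None of the 6 members passed, and none of the 13278 genes did (limma, Benjamini-Hochberg over all genes), with or without the spleen as a block; 629 genes had an unadjusted p under 0.05 without the block and 1329 with it. The doses differ, 1 uM against 20 nM, so this compares the treatments as given. Zfp367 was lower with KU-0063794 in 3 of 3 spleens, by -0.26, -0.09 and -0.57, and its mean difference was -0.31 (SE 0.10, 95% interval -0.53 to -0.08, limma adjusted p = 0.933). Its interval, which takes no account of the number of genes, excluded 0, and its adjusted p with the block was 0.394 (limma).

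Igfbp4 was also lower with KU-0063794 in 3 of 3 spleens, by -0.58, -0.38 and -0.27. The mean difference was -0.41 (95% interval -1.03 to 0.21, limma adjusted p = 0.945), and the interval narrowed to -0.78 to -0.04 with the block (limma adjusted p = 0.459). All 6 of its probe sets had a negative mean difference, between -0.48 and -0.07. Stmn1 was lower by a small amount in 3 of 3 spleens, -0.13 on average (95% interval -0.36 to 0.10), and its dimmer probe set differed by -0.43.

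Crip1 and Depdc1b read higher with KU-0063794 in 3 of 3 spleens, by 0.10 (95% interval -0.24 to 0.44) and 0.25 (95% interval -0.06 to 0.56) on average. For Depdc1b spleen 2 the difference was 0.002. Nrm differed by -0.08 (95% interval -0.28 to 0.12), with 2 spleens below and 1 above 0. The adjusted p of these 3 genes and Stmn1 lay between 0.933 and 0.972 by limma. The arrays of the inhibitors did not overlap for 3 members, Stmn1, Zfp367 and Depdc1b, as they did not for 8.16% of all genes tested. A missed threshold does not show that the inhibitors act alike on these genes, and the intervals give the differences that remain possible.

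**Figure D4:**
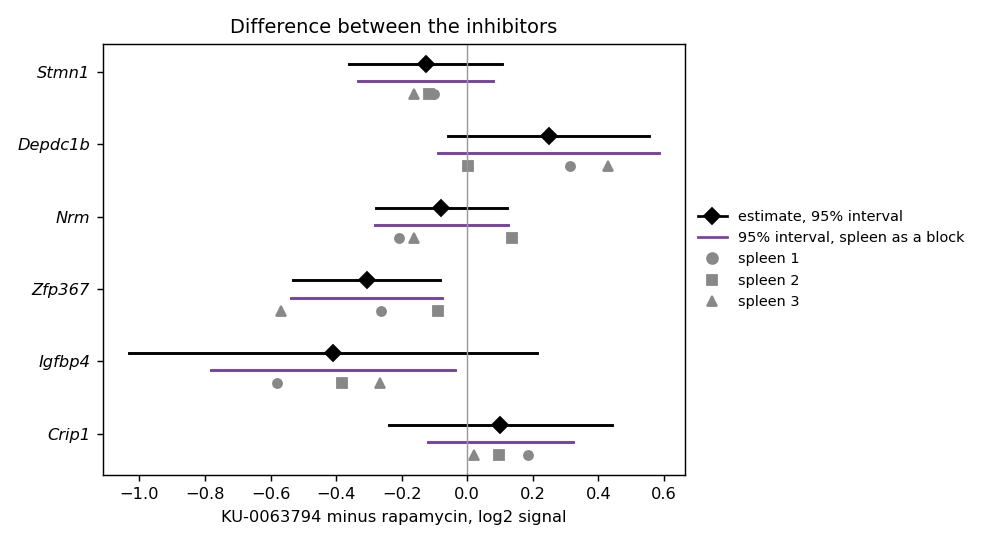
KU-0063794 minus rapamycin for the 6 genes (log2 scale), with the mean and its 95% interval from limma in black, the interval with spleen as a block in purple and a grey point for each of the 3 spleens. The black interval of Zfp367, -0.53 to -0.08, lies below 0, and with the block that of Igfbp4, -0.78 to -0.04, does too.

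The order of the members by their difference from DMSO was not the same for the inhibitors. Among the 13278 genes, ranked from the highest positive difference, Igfbp4 was at 5 with KU-0063794 and at 1 with rapamycin, and Crip1 at 11 and 24. Depdc1b was at 17 with KU-0063794 and at 111 with rapamycin, and Zfp367 at 147 and 28. Stmn1 was at 27 and 18, and Nrm at 32 and 26. These ranks describe the choice of members and are not a test.

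Across the 9 arrays the signals of any 2 members correlated with r between 0.773 (Zfp367 and Depdc1b) and 0.967 (Nrm and Stmn1), as follows from members chosen for the same treatment pattern. Subtracting each group's mean leaves the spread between spleens. In those deviations, Stmn1, Crip1 and Igfbp4 varied together, with r of 0.860 for Stmn1 and Crip1, 0.856 for Stmn1 and Igfbp4 and 0.774 for Igfbp4 and Crip1. Nrm and Zfp367 varied together with r of 0.739, and the other pairs had r between -0.170 and 0.269. The 9 points share 3 spleens and 3 treatments, so these values are a description.

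The genes most like each member over the 9 arrays were sought among 7948 genes above background. For Stmn1 they were Ccnb2, Cenpa and Ncaph (r of 0.993, 0.988 and 0.987), which encode a mitotic cyclin, the centromeric histone and a condensin subunit, and whose deviations from the group means also followed it with r of 0.934, 0.920 and 0.956. Igfbp4 was closest to Tfdp2, a partner of E2F factors, to Gins4, a part of the replicative helicase, and to the lysosomal membrane protein gene Lamp1 (r of 0.994, 0.986 and 0.984). In the deviations their r with Igfbp4 was 0.978, 0.945 and 0.926.

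Nrm was closest to Nup205, a nuclear pore scaffold gene, and to the chromatin protein genes Hmgb2 and Dek (r of 0.994, 0.987 and 0.983), with r of 0.882, 0.563 and 0.644 in the deviations. Zfp367 was closest to the nuclear receptor gene Nr2c2, to Casc3 and to Hmgb2 (r of 0.974, 0.972 and 0.972), with 0.681, 0.654 and 0.797 in the deviations. For Crip1 they were Selenoh, Snrpg and the mitotic kinase gene Nek2 (r of 0.987, 0.983 and 0.982), with 0.904, 0.931 and 0.907 in the deviations. For Depdc1b they were the corepressor gene Trim28, the condensin gene Smc2 and the kinase gene Tlk1 (r of 0.974, 0.972 and 0.967), with 0.775, 0.770 and 0.927 in the deviations. These are the highest of 7948 values of r for each member and are given as a description.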

How the data were processed

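RNA of 9 cultures was hybridised to 1 array each. The deposited values are log2 signals per probe set, made by the authors with Affymetrix Expression Console 1.3.1 per the submitters' processing notes; how background, summary and normalization were handled is not given in the sources used here. Signals increased by 0.929 log2 per doubling of the hybridisation controls, and array medians were 0.47 to 0.53 log2. The number of arrays limits the precision.

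Of 45101 probe sets, 64 are controls, 34945 name 1 gene symbol in the array annotation, 932 name several and 9160 are not listed there. The probe set with the highest mean stood for each gene. Of 18193 genes, 18032 had an Entrez identifier in the RefSeq table. Genes with a mean above the 40th percentile (0.31 log2) were tested, 13278 in all, with limma 3.58.1 in R 4.3.3 (3 group means over 9 arrays, Benjamini-Hochberg, threshold 0.05), after a test on simulated data. The background level is the 95th percentile of 33 tissue-restricted genes. Sequences and motif counts come from the RefSeq promoter table.

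Members and gene lists were chosen with earlier results of these data known. Named are the members, up to 2 genes per list, direction and comparison with the largest change past the test, and per member the 3 genes of highest correlation over the arrays and the 1 of highest correlation in deviations from group means; other list genes were named after their values were seen.

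Per the labels' protocols each biological replicate is 1 spleen; that equal numbers in the 3 groups share a spleen was read from this and from the arrays. Deviations from group means correlated with r of 0.345 to 0.533 for arrays of the same number and of -0.414 to -0.0791 for others. Deviations of a group sum to 0, so positive r for equal numbers brings negative r for others. A shared spleen and a shared batch cannot be told apart by these values. Alternatives were spleen as a block, fixed or random, only the 2 groups compared, quantile normalization, other filters, the mean of all probe sets, a trended robust fit and each array left out.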

Additional observations from a re-analysis of the deposited data

How the results depend on the processing

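The difference between the inhibitors passed the threshold for none of the 6 members in 102 combinations of member and alternative, and its sign turned in 2. For Nrm it was 0.15 with the mean of both probe sets, 1 of which is below background. For Crip1 it was -0.000947 without rapamycin replicate 1 and spanned -0.000947 to 0.178 over the arrays left out. With the mean of all probe sets, the difference from DMSO was 0.57 with KU-0063794 and 0.42 with rapamycin for Nrm, 0.36 and 0.48 for Zfp367 (1 probe set below background), and 1.17 with rapamycin for Stmn1. The genes called against DMSO numbered 540 with KU-0063794 and 590 with rapamycin. With the spleen as a replicate block they were 1644 and 1561, which include all 540 and all 590, with a random replicate block 1291 and 1245, and with only the 2 groups compared 111 and 98. Leaving out 1 array gave 123 to 548 with KU-0063794 and 183 to 514 with rapamycin. The counts were 123 to 126 without any 1 KU-0063794 array and 138 without DMSO replicate 1 for KU-0063794; for rapamycin they were 183, 193, 228, 328, 369 and 391 without rapamycin replicate 3, DMSO replicate 1, rapamycin replicates 1 and 2, DMSO replicate 3 and KU-0063794 replicate 1. The cause was not tested beyond the fewer arrays in those fits. The list counts without single arrays were chosen after seeing the data. Probe sets near the background level, such as Depdc1b in DMSO, limit the size of a difference that can be read.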

Other observations

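In deviations from the group means, the gene most like each member among the 7948 searched was Jagn1 for Nrm (r = 0.955), Cfdp1 for Stmn1 (0.972), Surf6 for Zfp367 (0.980), Alg8 for Igfbp4 (0.992), Fibp for Crip1 (0.978) and Krt81 for Depdc1b (0.937), over 9 arrays that share 3 spleens. Of these, Alg8 also followed its member over the signals themselves (r = 0.945), whereas the other 5 had r between -0.698 and 0.086. The deposited log2 signals of Depdc1b were identical, at 2.867, in KU-0063794 replicates 2 and 3. Identical values also occurred on other probe sets of the members, such as 5.165 for Stmn1 1448113_at in KU-0063794 replicates 1 and 2.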
